A study of Homo sapiens with 5 samples.

Results

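The clustered protocadherin genes of human chromosome 5 were examined in H3K9me3 peak lists from HEK293T cells, a human embryonic kidney line. The members were taken by name, as RefSeq protein-coding genes on chromosome 5 whose symbol starts with PCDHA, PCDHB or PCDHG. This gave 53 of 20037 protein-coding genes on chromosomes 1 to 22, X and Y, with 15 in the alpha cluster, 16 in the beta cluster and 22 in the gamma cluster. H3K9me3, histone H3 trimethylated at lysine 9 and found on silent chromatin, was mapped by immunoprecipitation of crosslinked chromatin and sequencing (ChIP-seq). The labels give 5 samples, all HEK293T: H3K9me3 libraries of genotype KD, EV and WT, and antibody-free input libraries of EV and WT. No KD input is listed, and the control used to call the KD peaks is not given. KD is read as the knockdown of the non-coding RNA KCNQ1OT1, which the series design writes as KCNQ1OT1_K, and EV as its empty-vector control. The sources used here do not give the knockdown method, the vector or whether the cells were a clone. Each group had 1 library, so no difference below has a replicate check, no test between conditions was made, and intervals cover counting error over peaks only.

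Clustered protocadherins are cell adhesion proteins of the cadherin superfamily that neurons use to tell their own processes from those of other cells. In the alpha and gamma clusters each gene starts with a large variable exon of its own, which encodes the whole extracellular part, and is spliced to constant exons shared by the cluster. Beta genes consist largely of such a variable exon alone and share no constant exons. Each variable exon has its own promoter, and in neurons a cell activates a few of these at random, through binding of CTCF to the promoter and looping to distant enhancers. Silencing by DNA and histone methylation of the other promoters, in which SETDB1 and SMCHD1 take part, is well known from mouse. The C-type genes, PCDHAC1, PCDHAC2, PCDHGC3, PCDHGC4 and PCDHGC5, lie at the ends of the alpha and gamma clusters and are controlled differently from the other members.

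The names of 2 lists tie them to the KD and EV samples. The KD list held 12650 peaks on these chromosomes and the EV list 24665, a KD/EV ratio of 0.513, and the covered length had a ratio of 0.408. A further list of 14362 peaks carries no genotype in its name, was assigned to no group and is described apart. Read depth behind the lists is unknown. Fold enrichment and −log10 p are the authors' values for a peak within its own list, and no change is read from them across lists. The median fold enrichment of all peaks was 3.68 in KD and 3.12 in EV, so a common fold threshold removes more EV than KD peaks.

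The promoters are shown first, since a shared sequence element is known for promoters of this family and since they lay outside the peaks described below. Promoter sequences, of 250 bases before and 50 after the transcript start, came from RefSeq (GRCh38.p14) for 47 members, all on the plus strand. The known element contains the letters CGCT. These letters alone are common, and a match does not show that a stretch is the element. CGCT was present on the plus strand in 46 of 47 member promoters (97.9%), against 63.4% of 22199 promoters of protein-coding genes. The exception was PCDHA9. On either strand the shares were 97.9% and 79.7%. The letters before CGCT differed by cluster: GTCGCT stood in 10 of 11 promoters of PCDHA1 to PCDHA12, GGCGCT in 13 of 14 beta promoters (PCDHB1 had GTCGCT), and GTCGCT or GCCGCT in all 11 gamma A promoters (5 and 6). Among all promoters GTCGCT was found on the plus strand in 5.36% and on either strand in 9.69%. The shares of GGCGCT were 15.8% and 26.8%, and those of GCCGCT 14.9% and 28.0%. These longer strings overlap CGCT by construction and were picked after the sequences were seen. The stretches below are shown so that the letters around the match can be compared between clusters. Each is printed on the plus strand with the first such string in capitals, and the string starts between positions −97 and −13 relative to the transcript start, apart from PCDHGB2, whose listed transcript start lies 142 bases inside the gene.
PCDHA1, chr5:140786078-140786125: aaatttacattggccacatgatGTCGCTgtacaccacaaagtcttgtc
PCDHA8, chr5:140841122-140841169: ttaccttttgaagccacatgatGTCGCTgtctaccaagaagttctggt
PCDHA10, chr5:140855833-140855880: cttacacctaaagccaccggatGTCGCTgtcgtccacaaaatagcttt
PCDHB2, chr5:141094536-141094583: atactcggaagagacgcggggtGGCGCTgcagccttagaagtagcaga
PCDHB5, chr5:141135171-141135218: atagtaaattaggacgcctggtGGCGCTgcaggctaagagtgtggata
PCDHB14, chr5:141223255-141223302: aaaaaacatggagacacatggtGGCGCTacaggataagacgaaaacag
PCDHGA1, chr5:141330395-141330442: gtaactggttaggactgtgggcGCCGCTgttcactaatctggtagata
PCDHGA6, chr5:141373827-141373874: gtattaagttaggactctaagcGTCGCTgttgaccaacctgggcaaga
PCDHGB2, chr5:141359913-141359960: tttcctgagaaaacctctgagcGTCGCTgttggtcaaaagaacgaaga
PCDHGB3, chr5:141370154-141370201: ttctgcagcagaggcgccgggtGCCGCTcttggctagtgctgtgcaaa
PCDHGC4, chr5:141484944-141484991: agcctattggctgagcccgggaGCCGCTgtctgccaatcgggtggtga

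No member promoter was under a peak in the KD list or the EV list. Of the 22199 promoters of protein-coding genes, 1.15% had a KD peak and 1.69% an EV peak. The nearest KD peak lay 160 bases from a member promoter and the nearest EV peak 63 bases, at PCDHGB6. Member promoters held few CpG dinucleotides, with a median of 7 in 300 bases (range 2 to 27), against 21 over all protein-coding promoters. The C-type promoters stood apart, with a median of 20.5 CpG in the 4 that have an entry, and the gamma B promoters had 11. The promoter of PCDHGB6 is shown whole because the EV peak that comes nearest to a promoter starts 63 bases after its last base. It had 16 CpG, and capitals mark CGCT on either strand.
PCDHGB6, chr5:141407771-141408070: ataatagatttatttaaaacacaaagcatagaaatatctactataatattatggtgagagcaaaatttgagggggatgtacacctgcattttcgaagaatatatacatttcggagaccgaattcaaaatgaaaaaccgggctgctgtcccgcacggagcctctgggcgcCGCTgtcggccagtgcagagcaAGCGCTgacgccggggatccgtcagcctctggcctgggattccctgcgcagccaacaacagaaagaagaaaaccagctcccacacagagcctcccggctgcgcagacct

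Peaks in both lists sat deep inside the variable exons, at a similar distance from the gene start in most members. In KD, the share of members under a peak was highest 1950 bases after the gene start, with 37 of 53 members (69.8%). In EV it was highest 2050 bases after the start, with 42 members (79.2%). At 50 bases after the start no member was under a peak in either list. Among 13470 other protein-coding genes of at least 5 kb, the shares at the same distances were 0.356% in KD and 0.854% in EV, and the highest shares from 2 kb before to 5 kb after the start were 0.824% in KD and 1.40% in EV. In those genes the highest shares lay near the gene start. Members of a family share sequence, and reads that match several members could be placed in either. The sources used here do not give the authors' read filters, and the part of such reads in the values of single members was not tested.

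**Figure D1:**
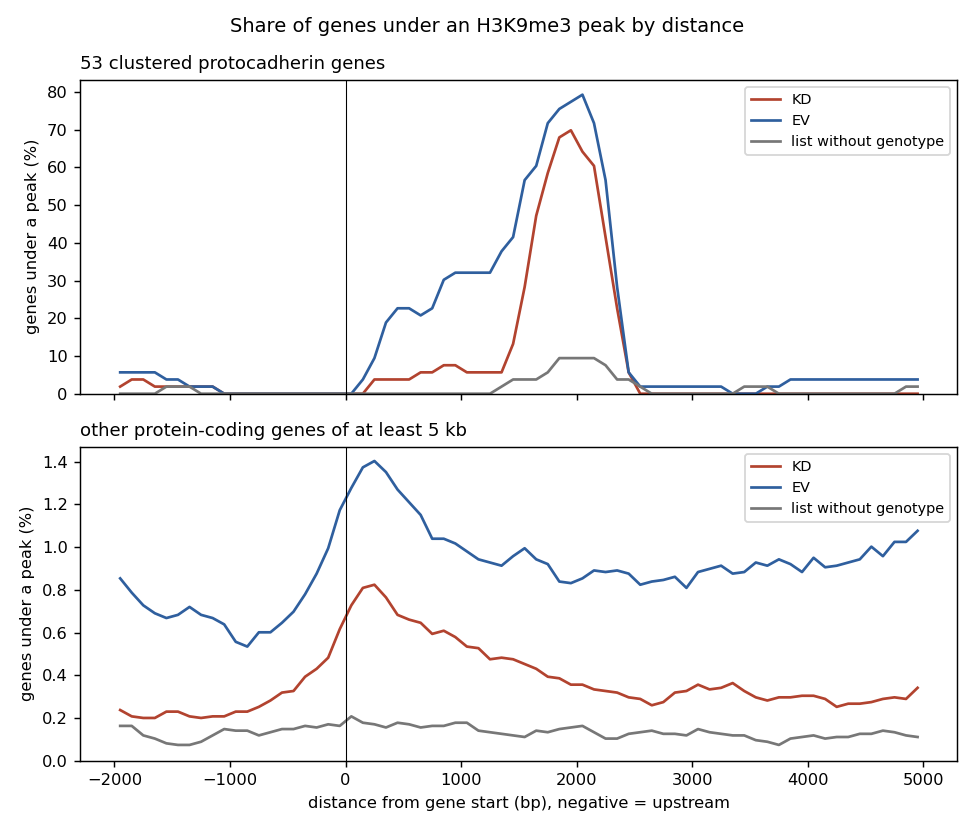
Share of genes under an H3K9me3 peak (%) against distance from the gene start in bp. Shares were read at single positions 100 bp apart, for the 53 members (upper panel) and 13470 other protein-coding genes (lower panel, a finer scale). Lines stand for the KD list, the EV list and the list without a genotype in its name. The KD and EV lines of the members reach 69.8% and 79.2% about 2 kb downstream of the start, whereas the highest share of the other genes is 0.824% in KD and 1.40% in EV.

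The first 2500 bases of each gene, called the variable exon window here, held most of the mark. Of the 46 KD peaks in the clusters 41 lay in such a window, and of the 52 EV peaks 43 did, each peak counted once. The windows held 89.9% of the covered bases of the clusters in KD and 84.3% in EV. A window peak was present at 41 of 53 members in KD, against a background of 2.94% of 15843 protein-coding genes with a known strand. In EV 43 members had one, against a background of 3.99%. At 36 members both lists had a window peak, at 5 the KD list alone, at 7 the EV list alone, and at 5 neither. The counts depended on which peaks were kept. With peaks of 3-fold enrichment or more there were 33 members in KD and 16 in EV. With the EV list alone cut to the 12650 peaks of largest −log10 p, there were 41 in KD and 29 in EV. The cause of these changes was not tested.

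**Figure D2:**
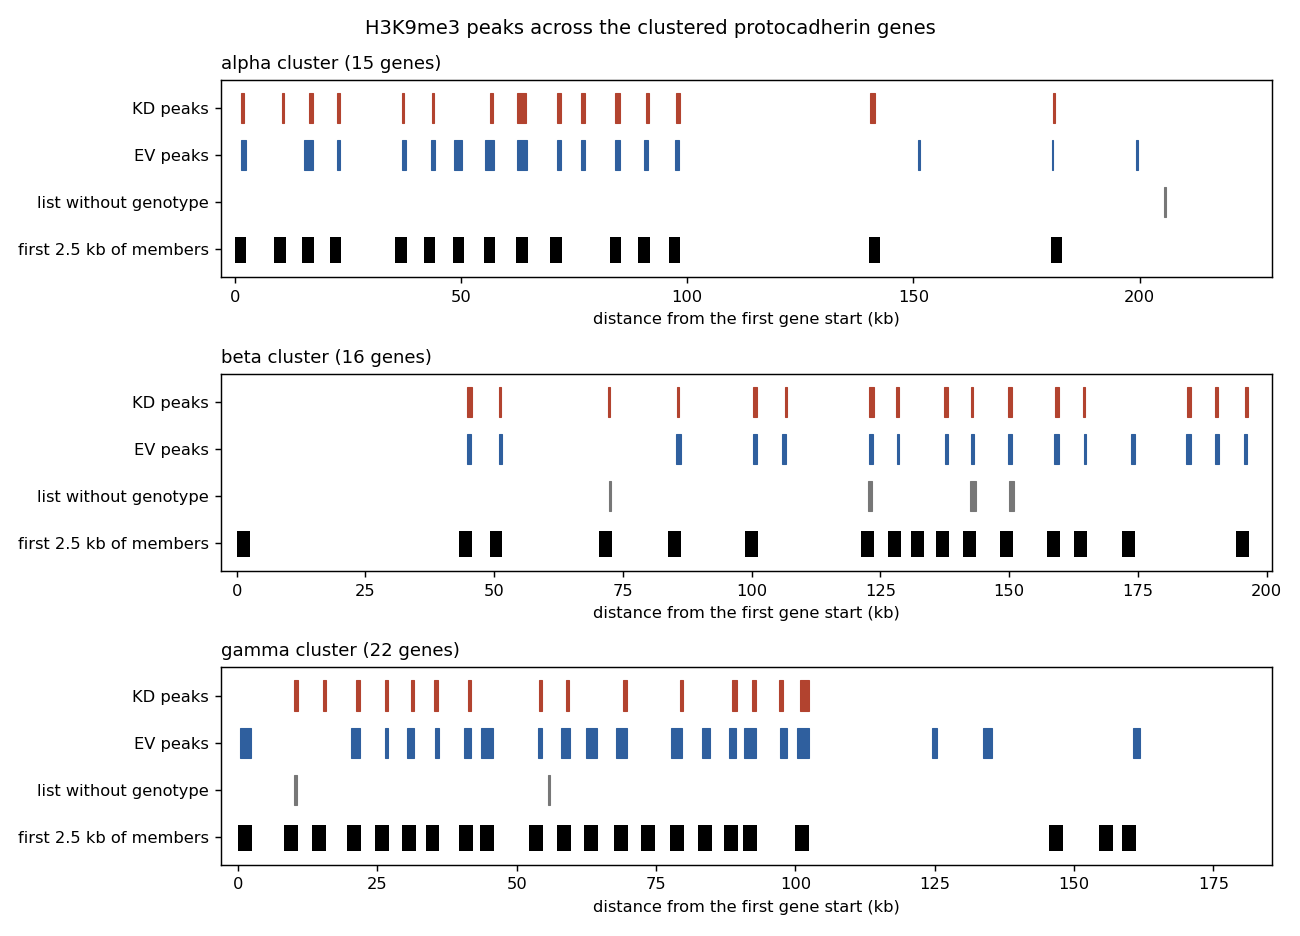
Peaks of the KD list, the EV list and the list without a genotype across the alpha, beta and gamma clusters, against distance from the first gene start in kb. Black boxes are the first 2.5 kb of each member. Of the KD peaks 41 of 46 fall on the black boxes, of the EV peaks 43 of 52 do, and the third list holds 7.

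The KD and EV peaks covered nearly the same length in the beta cluster and differed most in the gamma cluster. Over the 3 clusters KD peaks covered 32294 bp (5.32% of the spans) and EV peaks 58696 bp (9.68%), a KD/EV ratio of 0.550. The ratio was 0.891 in the beta cluster, 0.692 in the alpha cluster and 0.342 in the gamma cluster, against 0.408 over all chromosomes. The ratio of the 3 clusters was 0.864 with equal peak numbers and 1.23 for peaks enriched 3-fold or more, so its direction depended on which peaks were kept. Of the 46 KD peaks 41 (89.1%, exact Clopper-Pearson 95% interval 76.4 to 96.4) shared 1 bp or more with an EV peak. Of the 52 EV peaks 41 (78.8%, 65.3 to 88.9) overlapped a KD peak, and by cluster these were 13 of 16 alpha, 15 of 16 beta and 13 of 20 gamma peaks.

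The beta genes, which encode an adhesion protein in a single large exon, carried narrow peaks at a fixed place. Window peaks were present at 13 of 16 beta genes in KD and 13 in EV, 12 of them the same genes. KD peaks started between 1483 and 1870 bases after the gene start (median 1607) and ended between 2007 and 2434. EV peaks started between 1443 and 1947 bases (median 1616) and ended between 2145 and 2493. The median peak width of the cluster was 684.5 bp in KD and 730.5 bp in EV. PCDHB2 held the KD peak with the highest fold enrichment of all members, 7.88 with a −log10 p of 13.2, at chr5:141096098-141097049. In the EV list that place was held by PCDHB12, with 4.81 and 13.6, at chr5:141210162-141210971. Both genes were marked in both lists: peaks covered 23.3% of PCDHB2 in KD and 19.4% in EV, and 22% of PCDHB12 in KD and 21.0% in EV.

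PCDHB6 and PCDHB7 were also covered to like degrees, PCDHB6 to 24.0% in KD and 26.0% in EV, and PCDHB7 to 21.2% in KD and 21.4% in EV. PCDHB5 had 12.3% in KD and 24.3% in EV, from a KD peak of 420 bp (chr5:141136880-141137299, fold enrichment 2.79, −log10 p 4.54) inside an EV peak of 828 bp (chr5:141136733-141137560, fold 2.62, −log10 p 4.99). PCDHB8 had 26.8% in KD, the largest share of any member there, and 16.6% in EV. PCDHB3 had 13.1% in KD and 22.5% in EV. PCDHB14 had no KD peak in the gene and 14.3% in EV, from a peak of 633 bp at chr5:141225101-141225733 with a fold of 2.17 and −log10 p of 4.58. PCDHB4 had 9.59% in KD and no EV peak. The remaining marked genes, PCDHB9, PCDHB10, PCDHB11, PCDHB13 and PCDHB15, had from 5.87% to 18.7% in KD and from 7.07% to 16.3% in EV. PCDHB1, which lies apart at the upstream end of the cluster, and PCDHB16 had a peak in neither list.

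In the alpha cluster 14 of 15 genes had a window peak in KD and 13 in EV. Among PCDHA1 to PCDHA13, which neurons choose between at random, 12 had one in each list. The KD peaks started at a median of 1457 bases after the gene start (range 235 to 1714) and the EV peaks at 1306 (range 141 to 1549). EV peaks were wider at some members: they began within 1000 bases of the gene start at 4 of 12 of these genes, against 1 of 12 in KD. PCDHA9 was the most covered alpha gene in both, with peaks over 76.9% of its window in KD and 87.6% in EV, and held the widest peak of the cluster in each list, 1922 bp in KD and 2191 bp in EV. PCDHA3 had 33.4% of the window in KD and 81.5% in EV, and PCDHA8 had 25.4% in KD and 79.9% in EV. PCDHA7 had no KD peak and 70.2% in EV. PCDHA2 had 21.5% in KD and no EV peak. PCDHA1, PCDHA4, PCDHA5 and PCDHA6 had from 19.4% to 26.4% in KD and from 29.2% to 40.0% in EV. PCDHA10 to PCDHA13 had from 27.5% to 41.5% in KD and from 32.6% to 37.4% in EV. The KD peak with the highest fold in the cluster, 5.70 with a −log10 p of 9.26, lay in PCDHA10. A non-coding gene, LOC112267934, overlaps PCDHA11, so the peaks there lie in both genes.

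In the gamma cluster 14 of 22 genes had a window peak in KD and 17 in EV. All 7 gamma B genes had one in each list, and there the KD and EV peaks ended alike but started apart. Their KD peaks started between 1495 and 1790 bases after the gene start (median 1615), and their EV peaks between 112 and 878 bases (median 775). The KD start lay downstream of the EV start at all 7, by 641 to 1678 bases. Among all 36 members with a window peak in both lists, it did so at 25. Starts were not compared outside the clusters, where the KD peak was narrower in 83.5% of 8118 KD/EV pairs. The ends of the gamma B peaks had medians of 2232 bases in KD and 2234 in EV. At all 7 genes the ends lay within 200 bases of each other. PCDHGB2 had 23.4% of its window covered in KD and 55.1% in EV, from peaks of 585 and 1378 bp. The KD peak of PCDHGB2, at chr5:141361568-141362152, had a fold of 6.18 and −log10 p of 8.99, and the EV peak, at chr5:141360785-141362162, 2.66 and 4.58. PCDHGB3 had 15.1% in KD and 52.9% in EV, from peaks of 378 and 1322 bp. Its KD peak, at chr5:141371858-141372235, had a fold of 2.82 and a −log10 p of 4.08, and its EV peak, at chr5:141371017-141372338, 3.14 and 6.20. PCDHGB5 and PCDHGB6 had 25.4% and 20.6% in KD, and 80.2% each in EV. PCDHGB1, PCDHGB4 and PCDHGB7 had from 22.3% to 32.1% in KD and from 54.3% to 63.3% in EV. PCDHGB1 held the strongest KD peak of the cluster, with a fold of 6.27 and −log10 p of 11.1.

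The gamma A genes were mixed. Of 12, 7 had a window peak in KD and 9 in EV. PCDHGA1, PCDHGA6, PCDHGA8 and PCDHGA10 had no KD peak in the window, and 77.9%, 89.4%, 77.6% and 56.3% in EV. PCDHGA6 held the widest EV peak of all members, 2236 bp at chr5:141374074-141376309. PCDHGA2 and PCDHGA3 had 25.4% and 20.8% in KD and no EV peak in the window. PCDHGA4, PCDHGA5 and PCDHGA7 had between 22.7% and 29.4% in KD and between 22.4% and 27.0% in EV. PCDHGA11 had 26.0% in KD and 86.8% in EV. PCDHGA12 was the most covered in KD, with 67.7%, and had 83.3% in EV. PCDHGA9 had no window peak in either list.

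**Figure D3:**
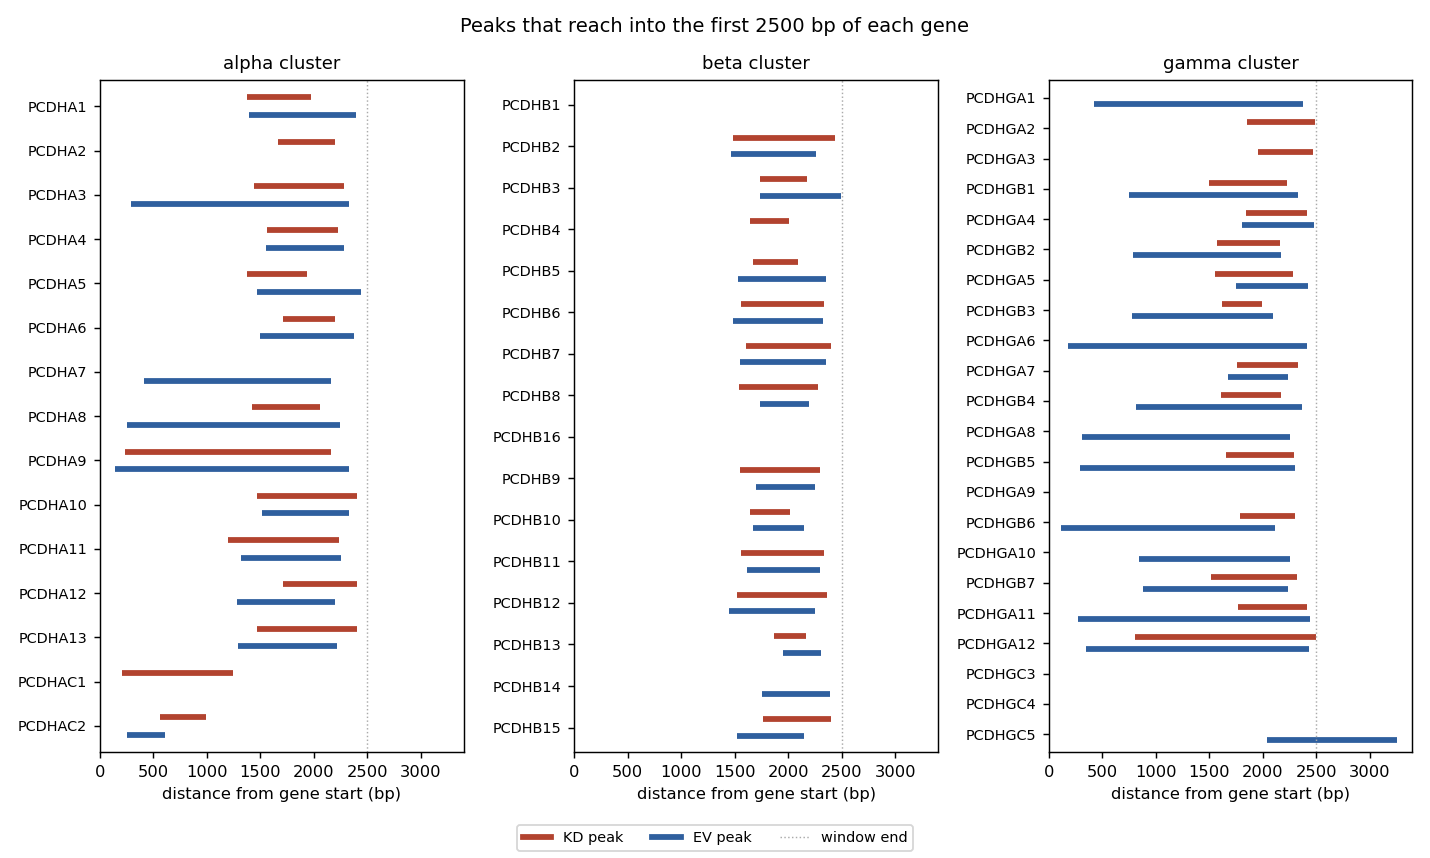
Position of each KD and EV peak that reaches into the first 2500 bp of a member, as distance from the gene start in bp, with genes in chromosomal order. Bars run from peak start to peak end, and the dotted line marks the end of the window. In the beta cluster all bars start at 1443 bp or later, and in the gamma B genes EV bars start between 112 and 878 bp and KD bars between 1495 and 1790 bp.

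Over all 36 members with a window peak in both lists, the ends of the peaks lay within 200 bases of each other at 29 and the starts at 21. KD peaks began at least 1000 bases after the gene start at 37 of 41 members, and EV peaks at 25 of 43. Narrower KD peaks were common over the whole of the 2 lists. Among 8118 pairs outside the clusters in which 1 KD peak overlapped 1 EV peak, the median KD/EV width ratio was 0.744, with quartiles of 0.463 and 0.941, and the KD peak was narrower in 83.5%. In the clusters the median ratio was 0.466 over 13 gamma pairs, 0.877 over 13 alpha pairs and 0.922 over 15 beta pairs. The KD peak was narrower in 11 of 13 gamma pairs (84.6%), 9 of 13 alpha pairs (69.2%) and 9 of 15 beta pairs (60%). It was less than 50% as wide as its EV partner in 7 of 13 gamma pairs (53.8%), against 28.2% of the pairs elsewhere. In the alpha cluster this held for 2 of 13 pairs (15.4%) and in the beta cluster for 1 of 15 (6.67%). Over all 3 clusters it held for 10 of 41 pairs (24.4%).

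Of the 5 C-type genes, 2 had a window peak in KD and 2 in EV. PCDHAC1 had a KD peak from 209 to 1240 bases after the gene start and no EV peak in the window. PCDHAC2 had a KD peak from 566 to 991 bases and an EV peak from 249 to 605 bases. PCDHGC3 and PCDHGC4 had no window peak, and PCDHGC5 had an EV peak from 2040 to 3260 bases and none in KD. The peaks of PCDHAC1 and PCDHAC2 thus ended before the distance at which most members were under a peak, and the EV peak of PCDHGC5 reached it.

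Some pseudogenes of the family in the clusters carried the mark as well. Pseudogenes were looked up only under peaks, so those without a peak were not counted. All 5 KD peaks that lay outside the windows overlapped a pseudogene of the family, namely PCDHA14, PCDHB17P, PCDHB18P, PCDHB19P and PCDHGB8P. The EV list had a peak overlapping each of these 5 KD peaks. At PCDHB18P the KD peak had a fold of 5.91 with −log10 p of 9.34, and the EV peak 3.59 with 7.06. The other 4 EV peaks outside the windows had no KD partner. The strongest of them lay at chr5:141455011-141456000, between the variable exons of PCDHGA12 and PCDHGC3, with a fold of 3.86 and −log10 p of 13.0. It was the EV peak with the second largest −log10 p in the clusters. The remaining 3 had a −log10 p from 2.98 to 3.12.

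At like strength, more of the EV peaks had a KD partner in the clusters than in the rest of the list in each class with a −log10 p below 8. With a −log10 p from 4 to 5, 13 of 16 EV peaks of the clusters overlapped a KD peak (81.2%, 54.4 to 96.0), against 23.0% (21.8 to 24.2) of 4912 peaks elsewhere. From 5 to 6 the counts were 10 of 10 (100%, 69.2 to 100), against 40.6% (38.8 to 42.4) of 2792. From 6 to 8 they were 13 of 15 (86.7%, 59.5 to 98.3), against 58.2% (56.4 to 59.9) of 3031, and here the intervals overlapped. Below 4 and from 8 to 15 the intervals of the clusters, over 7 and 4 peaks, were wide and included the values elsewhere. In the other direction, KD peaks were found in EV at 89.1% in the clusters and at 87.7% (87.1 to 88.3) elsewhere. Peaks of neighbouring variable exons share their sequence family and their libraries, so they are not independent observations.

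**Figure D4:**
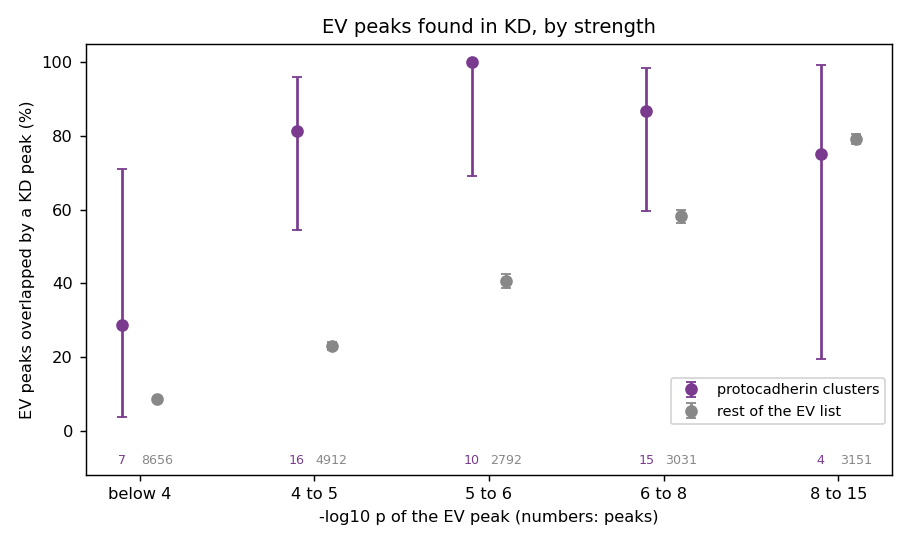
Share of EV peaks overlapped by a KD peak (%), by −log10 p of the EV peak, for the protocadherin clusters and for the rest of the EV list. Points are shares, bars exact 95% intervals over peaks, and the numbers under the points count the peaks. In the clusters 13 of 16 peaks between 4 and 5 were found, against 23.0% elsewhere.

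Counted over whole gene bodies, 11 members had KD peaks over 10% or more of the gene and 30 had EV peaks over as much. The background was 1.55% of all protein-coding genes in KD and 2.75% in EV. All 11 in KD were beta genes, and in EV 12 were beta and 18 gamma genes. The criterion depends on gene length, which was 2750 to 7973 bp for beta genes and 23895 to 226208 bp for the others. By window peak, KD marked 14 of 15 alpha, 13 of 16 beta and 14 of 22 gamma genes. Gene bodies of the alpha and gamma clusters run to shared constant exons and lie inside each other, so the 18 gamma genes rest largely on the same peaks. Counted by its own segment, from a gene start to the next, 23 members reached 10% in KD and 32 in EV. Segments ran from 3374 bp (PCDHGB7) to 45872 bp (PCDHAC2), so these counts depend on the distance to the next gene. No background was taken for segments. The members that reached 10% of the segment were 5 alpha, 6 beta and 12 gamma genes in KD, and 10 alpha, 6 beta and 16 gamma genes in EV. The order of the gene body counts turned for peaks enriched 3-fold or more, with 9 members in KD and 5 in EV, and with equal peak numbers, with 11 in KD and 9 in EV.

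Protocadherins outside the clusters were marked in a few cases. Over all protein-coding genes, the share that reached 10% of the gene body was 1.55% in KD and 2.75% in EV. Of 12 such genes, 1 reached 10% of the gene body in both KD and EV: PCDH8, an activity-regulated adhesion protein of neurons, with 30.8% in KD and 26.8% in EV. In its first 2500 bases PCDH8 had 70.9% in KD and 61.7% in EV. PCDH19, known for an X-linked epilepsy, had 46.9% of the same stretch in KD and 58.2% in EV, and PCDH17 had 16.0% and 3.04%. A peak in this stretch was thus present at 3 of the 12 genes in each list. The background over protein-coding genes with a known strand was 2.94% in KD and 3.99% in EV. For PCDH10 and PCDH20 the strand was not known, so this stretch was not measured. Of 12 genes flanking or between the clusters, 1 reached 10% in both KD and EV. This was TAF7, a subunit of the general transcription factor TFIID whose gene lacks introns and lies between the beta and gamma clusters, with 44.4% in KD and 100% in EV. None of 17 genes for known regulators of these promoters reached 10%, which at these background shares does not set them apart. Some overlap was present at 1 of the 17 in KD and at 6 in EV. No share of all protein-coding genes was taken for any overlap, which depends on gene length and on the covered length of the list. These 2 counts therefore do not set the regulators apart either. The largest EV shares were those of REST, 3.19%, and SMC1A, 2.90%. CTCF had no KD peak and 1.59% in EV, and SMCHD1 and SETDB1 had no peak in either list. EHMT1, an H3K9 methyltransferase gene, had 0.397% in KD and 1.25% in EV.

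The list without a genotype in its name had few peaks in the clusters. It held 7, over 0.781% of the spans, of which 1 lay in the alpha, 4 in the beta and 2 in the gamma cluster. Window peaks were present at 5 members, PCDHB4, PCDHB7, PCDHB10, PCDHB11 and PCDHGA2, against a background of 0.751% of protein-coding genes. They started between 1342 and 1830 bases after the gene start. At 4 members peaks covered 10% or more of the gene body, against a background of 0.774%. PCDHB10 had the largest share, 35.4%, and PCDHB7 had 21.9%. The −log10 p of the 7 peaks ran from 3.45 to 4.13, and 5 of them overlapped a KD peak and 3 an EV peak.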

How the data were processed

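H3K9me3 ChIP-seq peaks were taken from 3 lists in broad peak format. Reads were aligned with Bowtie2 and peaks called with MACS2 on GRCh38, both named without versions, per the submitters' processing notes. The sources used here do not give calling options, controls, filters or pooling. Each peak's fold enrichment is a deposited ratio over the caller's background, and its −log10 p and −log10 q are the authors' values as well. These were used to describe or filter peaks within a list.

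The names of the lists gave KD and EV for 2 of them. The third was left without a group. The lists hold no read counts, so the depth is unknown.

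Gene positions came from a RefSeq table of GRCh38.p14 and strand from its promoter table, with 15843 protein-coding genes matched. Neither exons nor a genome sequence were used, so the variable exon is represented by the first 2500 bases of a gene. Overlap required 1 bp, and covered bases were counted once, in Python 3.11.15 with numpy 2.4.6 and pandas 2.3.3. The interval functions were tested on simulated data against bedtools 2.31.1. The 95% intervals of shares are exact Clopper-Pearson ones (scipy 1.17.1), and figures were drawn with matplotlib 3.10.9.

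Named in full were the 4 genes PCDHB5, PCDHB14, PCDHGB2 and PCDHGB3, the members most covered or most different per cluster, and the widest and highest-fold peaks. Members and lists were chosen with earlier results of these data known. The profile, the peak offsets, the width pairs and the recovery by strength were added after the data were seen.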

Additional observations from a re-analysis of the deposited data

Results flagged for a closer look

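The list that carries no genotype in its name enters no comparison between KD and EV, and it held 7 peaks inside the protocadherin clusters. They made up 0.0487% (exact 95% interval 0.0196 to 0.100) of its peaks, against 0.364% (0.266 to 0.485) in KD and 0.211% (0.157 to 0.276) in EV. It has no control list of its own here. The difference between its share and those of KD and EV was not tested, and the sources used here do not give the sample it belongs to.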

How the results depend on the processing

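A count was taken as moved beyond 1.5 times the reported one, the overlap share outside its exact interval (65.3 to 88.9), and the ratio of covered length outside 0.362 to 0.834, the relative width of the exact interval of the ratio of peak numbers. Of 37 alternatives over 6 values, 22 stayed within these limits and 15 did not. The covered length had a KD/EV ratio of 0.550 as reported, 1.23 for peaks enriched 3-fold or more, and 0.864 with equal peak numbers. The share of EV peaks overlapped by KD peaks was 78.8% and became 53.8% under a reciprocal overlap of 50%. Members with at least 10% of the gene body covered numbered 11 in KD, and 22 at a limit of 5%, 5 at 20% and 47 at any overlap. In EV they numbered 30, and 5 at a fold of at least 3, 9 with equal peak numbers, 5 at 20% and 50 at any overlap. No background over all protein-coding genes was taken for the limits of 5% and 20% or for any overlap. Members with a window peak numbered 41 in KD, and 13 with a window of 1500 bases and 2 where at least 50% of the window had to be covered. In EV they numbered 43, and 16 at a fold of at least 3, 27 with a window of 1500 bases and 17 at 50% of the window. A common fold threshold acts unequally, since the median fold of all peaks was 3.68 in KD and 3.12 in EV. For the equal peak numbers, fewer EV peaks entered by construction. The cause of the other changes was not tested. With 1 library per group and depth unknown, the spread between libraries cannot be given. No paired analysis was possible because each group had 1 library and no test was made.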
